A study of Mus musculus with 12 samples.

Results

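Crystallin RNAs in mouse retina were followed through 12 bulk RNA-seq libraries. The genes were 10 listed crystallins, namely Cryaa, Cryab, Cryba1, Cryba2, Cryba4, Crybb1, Crybb2, Crybb3, Crygs and Crygn, and each was found by its Entrez ID among the 27179 gene IDs of every count file. The libraries were made from isolated retinae of mice labelled as a glia-specific knockout of ABCA1 (KO) and of mice labelled control. ABCA1 is a transporter that moves cholesterol and phospholipid out of cells. The 4 groups were KO at 12 months, control at 12 months, KO at 3 months and control at 3 months, each with 3 libraries. The labels' protocol speaks of astrocyte KO mice. What drives the deletion, the strain, the sex and whether a library is 1 animal or a pool are not stated in the labels. The p-values below therefore measure the spread between these libraries, which may be technical. Because these are bulk samples, fewer cells of a type and less RNA per cell cannot be told apart.

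Crystallins are the main soluble proteins of the eye lens. The alpha crystallins Cryaa and Cryab are small heat shock proteins that hold unfolding proteins in solution, and Cryab is also made in heart, skeletal muscle, glia and other tissues. The beta and gamma crystallins share a fold and pack densely in lens fibre cells, where they give the lens its refractive power. Several crystallins have also been described in retinal neurons, glia and pigment epithelium, where they have been studied in stress and axon growth. The lens lies close to the retina and is removed during dissection, so lens RNA can enter a retinal sample.

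The genes lie on 6 chromosomes of GRCm38, with 5 of them on chromosome 5. Cryba4 (Entrez 12959, chromosome 5 from 112246492 to 112263625, minus strand) overlaps Crybb1 (Entrez 12960, from 112254563 to 112269585, plus strand). Crybb2 (Entrez 12961, from 113058258 to 113070117, minus strand) lies 5721 bases from Crybb3 (Entrez 12962, from 113075839 to 113082236, minus strand). Crygn (Entrez 214301) lies apart from both pairs, from 24751002 to 24757848 on the minus strand of chromosome 5. Cryaa (Entrez 12954) runs from 31677931 to 31681730 on chromosome 17 and Cryab (Entrez 12955) from 50745951 to 50756636 on chromosome 9, both on the plus strand. Cryba1 (Entrez 12957) lies on chromosome 11 from 77718614 to 77725293, Cryba2 (Entrez 12958) on chromosome 1 from 74889934 to 74898842 and Crygs (Entrez 12970) on chromosome 16 from 22805203 to 22811410, all on the minus strand. The library kit keeps strand, but the labels do not state the strand setting of the counting. The split of reads between Cryba4 and Crybb1, and between Cryab and the overlapping Hspb2 and 2310030G06Rik, is therefore uncertain.

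Promoter sequences, from 250 bases before to 50 bases after the annotated start, were found in RefSeq (GRCm38.p6) for 9 of the 10 genes, and Cryab had no entry. 6 of them are printed as examples of the alpha, acidic beta, basic beta and gamma classes, with Cryba4 and Crybb1 as the pair that overlaps. The Cryaa window is chr17:31677681-31677980 (plus strand). The Cryba1 window is chr11:77725244-77725543 (minus strand). The Cryba4 window is chr5:112252469-112252768 (minus strand). The Crybb1 window is chr5:112255570-112255869 (plus strand). The Crybb2 window is chr5:113070068-113070367 (minus strand). The Crygs window is chr16:22811361-22811660 (minus strand). Each is printed 5′ to 3′ on the strand of its gene, and capitals mark TGCTGA or its reverse complement TCAGCA, and TATAAA.
Cryaa: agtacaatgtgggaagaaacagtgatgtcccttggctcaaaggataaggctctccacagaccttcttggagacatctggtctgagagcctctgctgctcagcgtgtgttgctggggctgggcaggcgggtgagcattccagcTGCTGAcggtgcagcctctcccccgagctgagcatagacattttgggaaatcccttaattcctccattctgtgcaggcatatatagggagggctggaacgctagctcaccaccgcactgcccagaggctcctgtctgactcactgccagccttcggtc
Cryba1: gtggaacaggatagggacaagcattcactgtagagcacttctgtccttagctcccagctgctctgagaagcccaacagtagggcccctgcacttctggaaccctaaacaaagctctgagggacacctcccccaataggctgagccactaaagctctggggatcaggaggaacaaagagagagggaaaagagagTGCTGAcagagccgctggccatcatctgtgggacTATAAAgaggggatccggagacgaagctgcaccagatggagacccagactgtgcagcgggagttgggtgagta
Cryba4: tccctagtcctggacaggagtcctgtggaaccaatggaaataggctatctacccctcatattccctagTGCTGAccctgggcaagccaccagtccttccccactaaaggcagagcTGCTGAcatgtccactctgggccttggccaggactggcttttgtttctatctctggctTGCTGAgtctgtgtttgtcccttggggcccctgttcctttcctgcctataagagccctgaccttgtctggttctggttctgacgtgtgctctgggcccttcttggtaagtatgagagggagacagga
Crybb1: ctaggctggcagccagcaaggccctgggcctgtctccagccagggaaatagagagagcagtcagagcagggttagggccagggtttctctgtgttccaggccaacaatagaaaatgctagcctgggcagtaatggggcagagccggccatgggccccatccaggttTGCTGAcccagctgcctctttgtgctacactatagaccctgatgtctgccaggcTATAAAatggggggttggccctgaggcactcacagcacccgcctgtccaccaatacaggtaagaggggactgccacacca
Crybb2: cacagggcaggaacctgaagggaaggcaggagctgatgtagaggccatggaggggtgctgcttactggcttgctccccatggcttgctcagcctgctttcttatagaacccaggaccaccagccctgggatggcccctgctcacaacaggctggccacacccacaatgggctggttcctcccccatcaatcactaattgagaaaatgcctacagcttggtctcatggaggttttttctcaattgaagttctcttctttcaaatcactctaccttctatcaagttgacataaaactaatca
Crygs: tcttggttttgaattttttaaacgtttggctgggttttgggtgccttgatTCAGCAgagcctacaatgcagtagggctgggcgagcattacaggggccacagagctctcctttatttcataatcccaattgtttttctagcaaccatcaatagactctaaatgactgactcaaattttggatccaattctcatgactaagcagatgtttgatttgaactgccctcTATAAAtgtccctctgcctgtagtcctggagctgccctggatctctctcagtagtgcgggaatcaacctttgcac
TGCTGA is the core of the element bound by large Maf proteins, which regulate lens crystallin genes. Searched on both strands, it was present in 8 of the 9 crystallin windows and in 19.5% of all 32851 promoter windows of the same length. TATAAA, the letters of a TATA box, searched in the same way, was present in 4 of the 9 windows and in 13.6% of all windows. The heat shock element core GAANNTTC was in 0 of the 9 windows and in 7.86% of all windows. The motifs searched do not overlap one another where they matched. Cryba4 held 3 copies of TGCTGA, with first bases at -182, -135 and -77 from the start site. The Cryba1, Crybb1 and Crygs windows held 1 TATAAA each, first base at -23, -30 and -25 in that order. In the Cryba2 window, which is not printed, the first base of TATAAA was at -3, so the match runs across the annotated start. The Crybb2 window held none of the 3 motifs. A match describes letters in the window and does not show binding.

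Library totals ran from 29027099 to 30438026 counts. Markers of retina were high in every library, with 6 rod and cone genes summing to 40244 CPM or more (CPM are counts scaled to a common library size, with TMM factors), so the tissue label held. One library, 3-month control replicate 2, stood apart from the other 11. It held 1497 counts of Foxe3, a transcription factor of lens epithelium, against 56 in 3-month control replicate 3 and 0 to 2 in the other 10 libraries. The summed CPM of 11 lens fibre genes that are not crystallins was 5.50 to 220 in 3-month control, against 1.96 to 2.16 in 3-month KO. At 12 months it was 2.41 to 3.04 in KO and 1.18 to 2.40 in control. All 3 of the 3-month control libraries also held skeletal muscle RNA, with 10 muscle genes summing to 80.7 to 91.6 CPM, against 6.28 to 10.0 CPM in 3-month KO. Abca1 is measured here over the whole gene and all retinal cells, so its level cannot check a deletion in glia. It was at 27.4 to 42.5 CPM in 12-month KO and 27.7 to 32.7 CPM in 12-month control, and at 24.3 to 27.5 CPM in 3-month KO and 20.7 to 26.6 CPM in 3-month control.

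Results below that rest on 3-month control are given with and without replicate 2. Where 3-month control replicate 3, the library with the next highest lens counts, matters, values without both are added. The 10 crystallins together took 0.556% of the counts in 3-month control replicate 2 and as little as 0.00528% in the library where they were lowest.

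**Figure D1:**
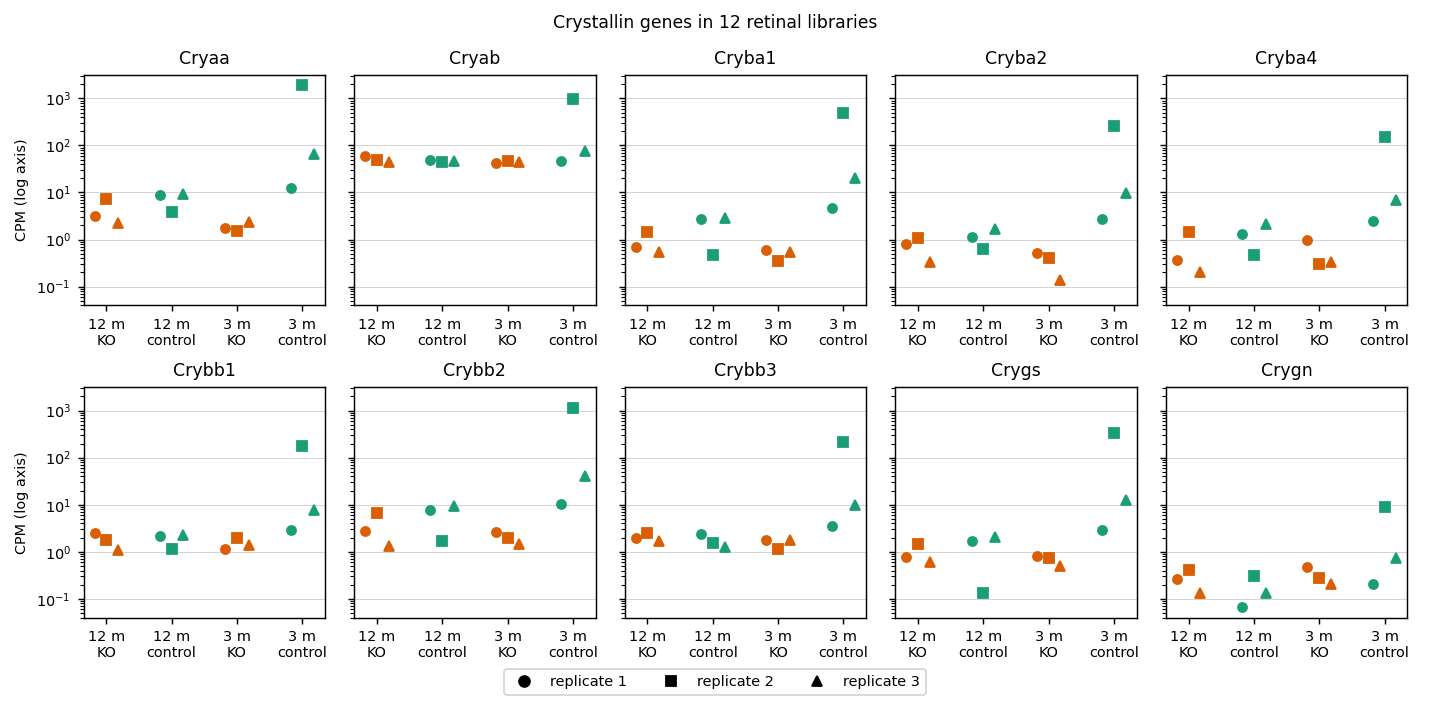
Level of each crystallin gene in CPM (log axis) in 12 libraries, grouped by age and genotype, with a symbol for each replicate number. In 3-month control, replicate 2 (square) is the highest library of all 12 for every gene and replicate 3 (triangle) is next, while Cryab lies between 42.9 and 60.5 CPM in the other 10 libraries.

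Cryab, the small heat shock protein alpha B crystallin, was the crystallin with the most counts in 11 of the 12 libraries. It was counted 1832, 1447 and 1316 times in 12-month KO and 1500, 1305 and 1354 times in 12-month control. At 3 months it was counted 1272, 1329 and 1330 times in KO and 1366, 29477 and 2284 times in control. Outside 3-month control replicates 2 and 3 its highest level was 1.41 times its lowest, the narrowest range among the 10 genes. Its mean was 51.3 ± 8.24 CPM in 12-month KO and 46.6 ± 3.18 CPM in 12-month control (SD, n = 3 each). In 3-month KO its mean was 44.5 ± 1.39 CPM (SD, n = 3).

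Cryaa, the alpha A crystallin and the partner of Cryab in lens, behaved otherwise. It was counted 98, 219 and 67 times in 12-month KO and 271, 113 and 279 times in 12-month control. At 3 months it was counted 51, 45 and 69 times in KO and 373, 57360 and 2002 times in control. The 12-month groups overlapped, and each 3-month control library was above each 3-month KO library. Cryaa in 3-month control replicate 2 was at 1923 CPM, 506 times the median of the other 11 libraries, while Cryab there was at 988 CPM, 21.6 times its median. Cryab made up 17.4% of the crystallin counts in that library and 30.2% in 3-month control replicate 3, against 52.5% to 84.4% in the other 10.

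The acidic beta crystallins Cryba1, Cryba2 and Cryba4 were present at low counts outside 3-month control. Cryba1 encodes beta A3 and beta A1 crystallin, which in rodents has also been studied in retinal astrocytes and pigment epithelium. It was counted 21, 44 and 16 times in 12-month KO and 82, 14 and 87 times in 12-month control. At 3 months Cryba1 was counted 18, 10 and 16 times in KO and 137, 14247 and 598 times in control. The 3-month groups did not overlap and the 12-month groups did. Of all 10 genes Cryba1 stood highest in 3-month control replicate 2 relative to the other 11 libraries, at 688 times their median.

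Cryba2, another lens structural crystallin, was counted 24, 32 and 10 times in 12-month KO and 34, 19 and 49 times in 12-month control. At 3 months it was counted 15, 12 and 4 times in KO and 81, 7856 and 288 times in control. Cryba4 was counted 11, 42 and 6 times in 12-month KO and 40, 14 and 62 times in 12-month control. At 3 months Cryba4 was counted 29, 9 and 10 times in KO and 72, 4457 and 212 times in control. For both genes each 3-month control library lay above each 3-month KO library, and the 12-month groups overlapped.

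The basic beta crystallins Crybb1, Crybb2 and Crybb3 did not share a pattern outside the libraries with high lens counts. Crybb2, an abundant beta crystallin of the adult lens, was counted 82, 200 and 40 times in 12-month KO and 232, 50 and 283 times in 12-month control. At 3 months Crybb2 was counted 77, 56 and 44 times in KO and 298, 33883 and 1246 times in control. Like Cryaa, Cryba1, Cryba2, Cryba4 and Crygs, it was lowest among the 12-month controls in replicate 2 and highest among the 12-month KO libraries in replicate 2. Its highest level was 7.45 times its lowest over the 10 libraries without 3-month control replicates 2 and 3.

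Crybb1, which has a long amino-terminal extension, varied less. It was counted 76, 54 and 32 times in 12-month KO and 64, 34 and 67 times in 12-month control. At 3 months Crybb1 was counted 34, 57 and 41 times in KO and 84, 5259 and 235 times in control. Crybb3 was counted 59, 76 and 50 times in 12-month KO and 72, 45 and 37 times in 12-month control. At 3 months Crybb3 was counted 52, 34 and 52 times in KO and 103, 6529 and 288 times in control. Over the 10 libraries the highest level was 2.63 times the lowest for Crybb1 and 3.00 times for Crybb3, against 7.08 to 21.2 times for the 7 genes other than these and Cryab.

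Of the gamma crystallins, Crygs, which encodes the gamma S crystallin of the lens cortex, was counted 23, 44 and 18 times in 12-month KO and 50, 4 and 62 times in 12-month control. At 3 months Crygs was counted 24, 22 and 15 times in KO and 84, 9866 and 386 times in control. Its range over the 10 libraries was the widest, at 21.2 times, and rested on 4 counts in 12-month control replicate 2. Crygn encodes gamma N crystallin, which is intermediate in sequence between the beta and gamma families. It was counted 8, 12 and 4 times in 12-month KO and 2, 9 and 4 times in 12-month control. At 3 months Crygn was counted 14, 8 and 6 times in KO and 6, 272 and 22 times in control, and here the groups overlapped. Of the counts from 1 to 20 in a library 60.7% to 70.2% were even numbers, against 48.6% to 50.7% of counts above 100 and up to 400. The reads of a pair therefore appear to have been counted separately, and low counts stand for fewer fragments than their number.

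Levels of different genes were compared as CPM per kilobase of exon. In the 10 libraries without 3-month control replicates 2 and 3, Cryab was first with a median of 30.9 and a highest value of 40.9 CPM per kilobase. The highest value of any other crystallin in these libraries was 6.10 CPM per kilobase. Crybb1 was next at a median of 1.91 (range 1.10 to 2.90) and Cryaa followed at 1.70 (range 0.743 to 6.10) CPM per kilobase. Crybb2 had a median of 1.32, Crygs 0.897, Cryba4 0.865, Crybb3 0.753, Cryba2 0.600, Cryba1 0.408 and Crygn 0.292 CPM per kilobase. Each neighbouring pair in this order below Cryab overlapped in range. In 3-month control replicate 2 the order was another one, with Cryaa first at 926, Cryab at 668, Crybb2 at 564 and Crygs at 378 CPM per kilobase. Crybb1, at 179 CPM per kilobase, was the seventh there, and Crygn, at 11.4, was last in both orders.

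The proportions between the crystallins were set against Cryaa, since Cryaa was the most abundant crystallin in 3-month control replicate 2. Counts of Crybb2 were 59.1% of Cryaa counts in that library, 62.2% in 3-month control replicate 3 and a median of 84.6% in the other 10. Crygs stood at 17.2% of Cryaa in 3-month control replicate 2, 19.3% in replicate 3 and a median of 22.4% in the other 10. Cryba1 stood at 24.8% and 29.9% in those libraries and at a median of 23.5% in the other 10. For these genes and Cryba2 the value of 3-month control replicate 2 lay inside the range of the other 10 libraries.

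The other 5 genes were lower relative to Cryaa in 3-month control replicate 2 than in any of the other 11 libraries. Cryab was 51.4% of Cryaa there, 114% in replicate 3, and 366% to 2953% in the other 10. Crybb1 was 9.17% of Cryaa there, 11.7% in replicate 3, and 22.5% to 127% in the other 10. Crybb3 was 11.4% there and 13.3% to 102% in the other 10, Cryba4 was 7.77% there and 8.96% to 56.9% in the other 10, and Crygn was 0.474% there and 0.738% to 27.5% in the other 10. These ratios share Cryaa as denominator, which was under 100 counts in 5 libraries.

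**Figure D2:**
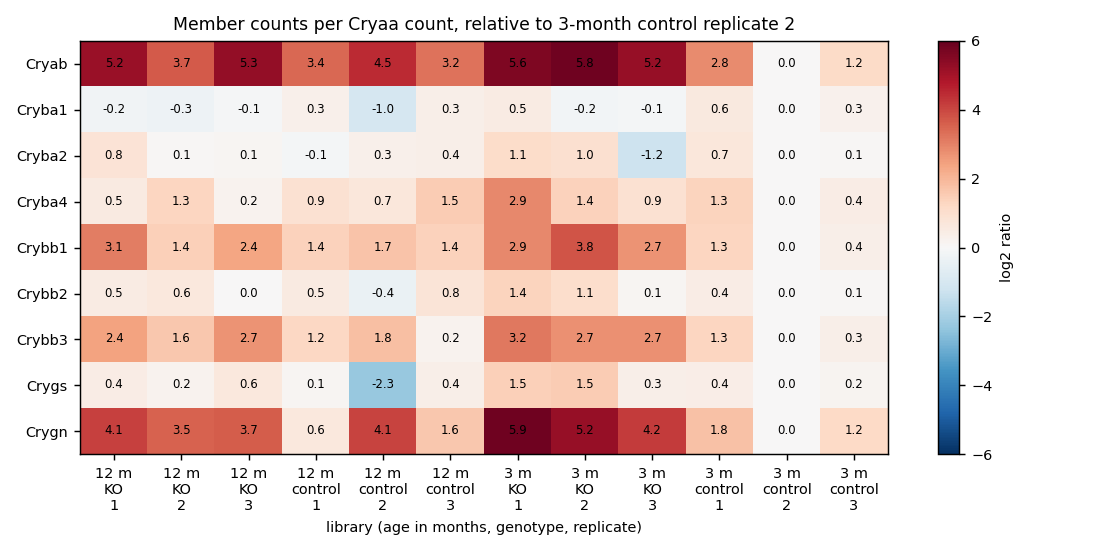
Counts of 9 crystallin genes per count of Cryaa in each of 12 libraries, as a log2 ratio to the same value in 3-month control replicate 2, printed in each cell. Cryab, Cryba4, Crybb1, Crybb3 and Crygn lie above 0 in the other 11 libraries, while Cryba1, Cryba2, Crybb2 and Crygs lie on either side of it.

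To set lens counts apart from the level in the other libraries, the excess of each gene in 3-month control replicate 2 over the mean of the other 3-month controls was divided by the excess of a lens index. That ratio gave the level expected elsewhere from the index alone. With the 11 lens fibre genes as index, Cryab was above its expected level in 11 of 11 libraries, by 20.2 to 47.2 CPM. No other crystallin was above in all 11. Crygn was above in 9, Crybb1 in 5, Cryba4 and Crybb3 in 1 each, and Cryaa, Cryba1, Cryba2, Crybb2 and Crygs in 0. The index expected 104% to 935% of the Crybb2 level found, so the fibre genes were higher relative to Crybb2 elsewhere than in 3-month control replicate 2.

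With Cryaa as the index, a choice made after these values were seen, Cryab, Cryba4, Crybb1, Crybb3 and Crygn were above the expected level in 11 of 11 libraries. These are the genes that were lowest relative to Cryaa in 3-month control replicate 2, so this count restates the ratios and adds nothing to them. The remainder for Cryab was 43.6 to 58.9 CPM in 12-month KO and 41.1 to 45.6 CPM in 12-month control. At 3 months it was 42.1 to 44.8 CPM in KO and 40.2 to 43.5 CPM in control replicates 1 and 3, so the 3-month ranges overlapped. For Crybb1 the remainder was 0.880 to 2.22 CPM in 12-month KO and 0.798 to 1.41 CPM in 12-month control, and 0.991 to 1.81 CPM in 3-month KO and 1.70 to 1.78 CPM in 3-month control. For Crybb3 it was 1.44 to 1.73 CPM in 12-month KO and 0.187 to 1.38 CPM in 12-month control. These remainders did not overlap, but the Crybb3 levels themselves did, at 1.70 to 2.56 CPM in KO and 1.25 to 2.40 CPM in control. At 3 months the Crybb3 remainder was 0.992 to 1.56 CPM in KO and 2.07 to 2.08 CPM in control, so KO was below control. At 3 months the remainders of Cryba1, Cryba2, Cryba4, Crybb2 and Crygs were also below control in all KO libraries, and no share over all genes was computed for remainders. Control replicates 1 and 3 also set the baseline of the ratio. Both held more lens fibre and gamma crystallin RNA than the 3-month KO libraries. The remainders therefore cannot be read as levels free of lens RNA. With Cryga to Crygf, the gamma crystallins of fibre cells, as the index, no crystallin was above the expected level in all 11 libraries. In 12-month control replicate 2 and 12-month KO replicates 2 and 3 this index had 0 counts. The expected level there was 0, so any gene with counts lay above it by construction. Cryab was above in 10, the exception being 3-month control replicate 1.

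That last library differed from replicate 2 in its lens genes. The counts of Cryga to Crygf were 38.9% of Cryaa counts in 3-month control replicate 1, against 2.44% in replicate 2 and 5.24% in replicate 3. Foxe3 had 0 counts in replicate 1, where a count of 0 allows up to 3 counts, against 1497 in replicate 2. The ratio comes from a single library, so this arithmetic has no test.

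**Figure D3:**
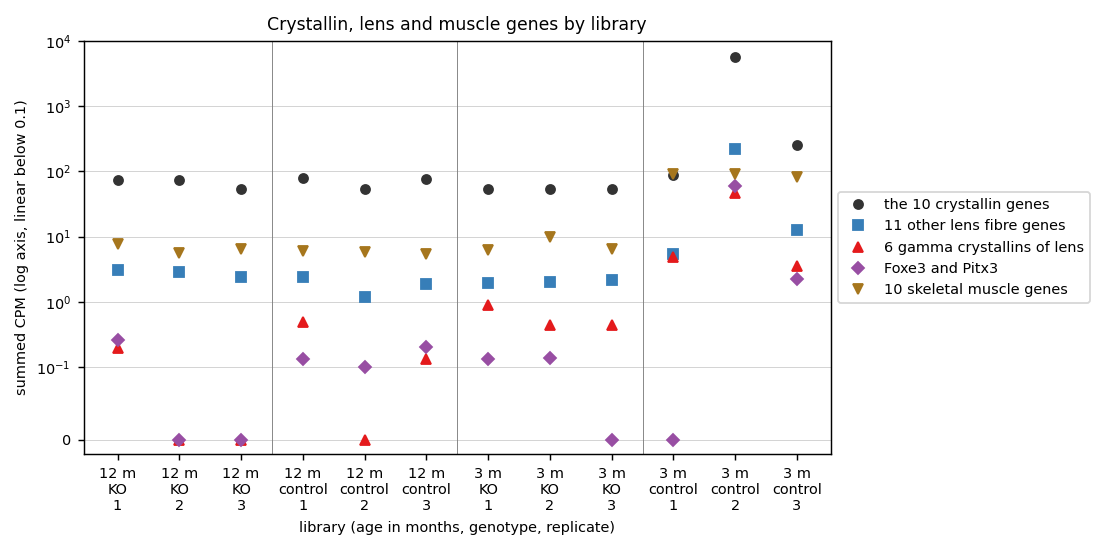
Summed CPM (log axis, linear below 0.1) of the 10 crystallins, 11 other lens fibre genes, 6 gamma crystallins, Foxe3 with Pitx3, and 10 skeletal muscle genes in each of 12 libraries. The lens groups are highest in 3-month control replicate 2, while muscle is at 80.7 to 91.6 CPM in all 3 of the 3-month controls.

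The effect of the glial ABCA1 deletion was tested first at 12 months. No crystallin was called different between KO and control, 0 of 10 against 0.212% of the 16475 genes tested (edgeR quasi-likelihood test, Benjamini-Hochberg adjusted p below 0.05), and 0 of 10 had an unadjusted p below 0.05, against 8.7% of genes. Cryab had a log2 fold change of 0.14 ± 0.99 (SE), with adjusted p = 0.98. Cryaa had a log2 fold change of -0.79 ± 1.84 (SE) and Cryba1 of -1.17 ± 2.47 (SE). These errors were widened by 3-month control replicate 2, since the groups share an estimate of spread. Without that library the fold change of Cryab was 0.14 ± 0.17 (SE), with adjusted p = 0.78, and again 0 of 10 were called, against 0.994% of genes. Over all 10 genes 7 log2 fold changes were below 0 and 3 above, with a median of -0.54 against -0.0020 over all genes. In all 10 genes the KO and control libraries overlapped, while 8.33% of genes had all KO values lower and 8.32% all KO values higher.

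At 3 months all 10 log2 fold changes were below 0, with a median of -6.99 against 0.0018 over all genes. With all libraries 0 of 10 were called, against 0.225% of genes, although 10 of 10 had an unadjusted p below 0.05, against 7.5% of genes. All KO values lay below all control values in 9 of 10 genes, the exception being Crygn, against 7.66% of all genes, and again in 9 of 10 without control replicate 2, against 12.4%. Cryaa had a log2 fold change of -8.48 ± 2.04 (SE), with adjusted p = 0.50, and Cryab of -3.06 ± 1.04 (SE), with adjusted p = 0.65. The lens fibre genes moved with these values, at 1.96 to 2.16 CPM in KO and 5.50 to 220 CPM in control, as did Cryga to Crygf, at 0.440 to 0.911 CPM in KO and 3.51 to 46.8 CPM in control. The part of lens RNA in these differences was not tested.

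Without 3-month control replicate 2, 2 of 10 crystallins were called lower in KO, Cryba2 and Crybb3, against 0.156% of genes called lower. Cryba2 averaged 0.351 ± 0.193 CPM in KO (SD, n = 3) and 6.20 ± 4.87 CPM in control (SD, n = 2), a log2 fold change of -4.13 ± 0.63 (SE) with adjusted p = 0.018 (edgeR). Crybb3 averaged 1.56 ± 0.341 CPM in KO (SD, n = 3) and 6.57 ± 4.34 CPM in control (SD, n = 2), a log2 fold change of -2.07 ± 0.36 (SE) with adjusted p = 0.018 (edgeR). Cryba1 had a log2 fold change of -4.62 ± 0.90 (SE) with adjusted p = 0.25, and Cryaa of -4.41 ± 0.85 (SE) with adjusted p = 0.25. Cryab had -0.47 ± 0.19 (SE) with adjusted p = 1.

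Without 3-month control replicates 2 and 3, Cryba2 was still called, at -2.96 ± 0.58 (SE) with adjusted p = 0.044 (edgeR), against 0.0989% of genes called lower. This fit has 1 control library at 3 months and assumes that it varies like the other groups. Crybb3 was then at -1.16 ± 0.37 (SE) with adjusted p = 0.94, and Cryab at -0.06 ± 0.13 (SE) with adjusted p = 1. In the library left, 3-month control replicate 1, Cryga to Crygf had 145 counts, against 13 to 27 in 3-month KO. DESeq2 called 8 of 10 lower with all libraries, all but Cryab and Crygn, against 0.255% of genes called lower.

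**Figure D4:**
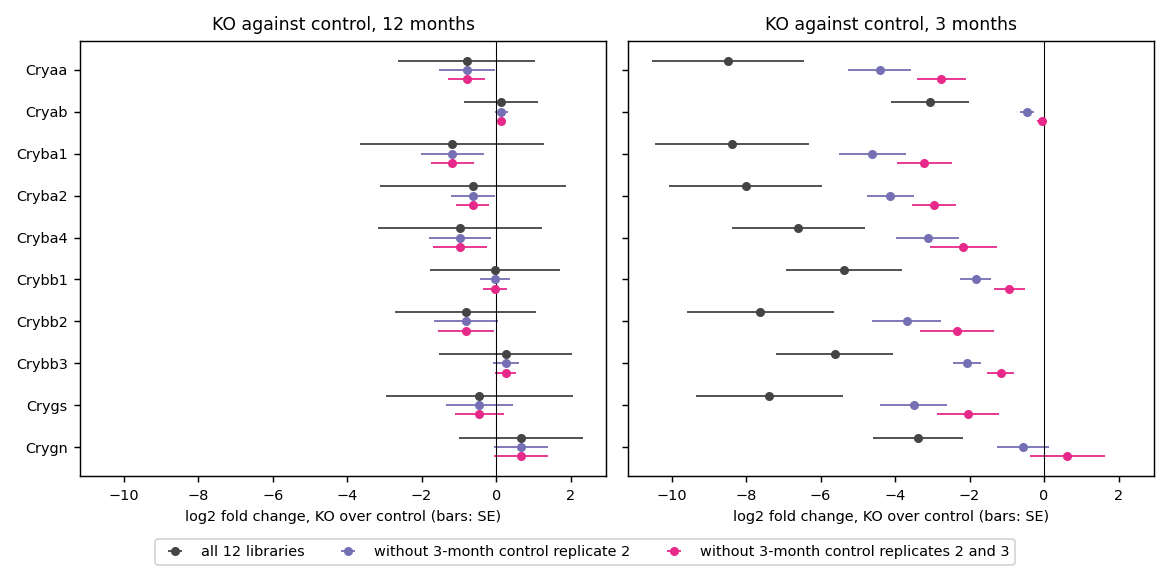
Log2 fold change of KO over control at 12 months (left) and 3 months (right) for each crystallin, with bars of 1 SE, from fits with all 12 libraries, without 3-month control replicate 2, and without replicates 2 and 3. At 12 months the points do not move and the bars shorten. At 3 months the points move towards 0 as the libraries are left out, Cryab from -3.06 to -0.06. Crygn passes 0 there, from -3.39 to 0.63.

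Age was compared within each genotype. In control, 0 of 10 crystallins were called between 12 and 3 months, against 2.11% of genes, with 10 of 10 at an unadjusted p below 0.05, against 12.5% of genes. DESeq2 called 10 of 10 lower, against 1.34% of genes called lower. All 10 log2 fold changes were below 0, with a median of -5.73 against 0.0016 over all genes. In 8 of 10 genes all 12-month control values lay below all 3-month control values, against 8.29% of genes, the exceptions being Cryab and Crygn, and again in 8 of 10 without 3-month control replicate 2, against 17.6%. Without 3-month control replicate 2, 2 of 10 were called lower at 12 months, again Cryba2 and Crybb3, against 0.934% of genes called lower. Cryba2 averaged 1.14 ± 0.507 CPM at 12 months (SD, n = 3) and 6.20 ± 4.87 CPM at 3 months (SD, n = 2), a log2 fold change of -2.44 ± 0.55 (SE) with adjusted p = 0.039 (edgeR). Crybb3 averaged 1.72 ± 0.605 CPM at 12 months (SD, n = 3) and 6.57 ± 4.34 CPM at 3 months (SD, n = 2), a log2 fold change of -1.93 ± 0.36 (SE) with adjusted p = 0.0060 (edgeR). Without replicates 2 and 3, 0 of 10 were called, against 0.855% of genes, and Cryab had a log2 fold change of 0.0037 ± 0.13 (SE).

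In KO, whose libraries had low lens counts at both ages, 0 of 10 crystallins were called between 12 and 3 months, against 2.37% of genes, and 0 of 10 had an unadjusted p below 0.05, against 13.3% of genes. Cryab averaged 51.3 ± 8.24 CPM at 12 months and 44.5 ± 1.39 CPM at 3 months (SD, n = 3 each), a log2 fold change of 0.21 ± 0.99 (SE). The SE was 0.17 without 3-month control replicate 2 (adjusted p = 0.62) and 0.092 without replicates 2 and 3 (adjusted p = 0.27, edgeR). The log2 fold changes of 9 genes were above 0, with a median of 0.43 against -0.00069 over all genes, and the age groups overlapped in all 10. All 12-month values were higher in 10.7% of all genes and lower in 11.5%. Without 3-month control replicate 2 the count was again 0 of 10, against 4.29% of genes. The difference between the KO effects at 12 and 3 months was called in 0 of 10 genes, against 0.127% of genes, with 3 at an unadjusted p below 0.05, against 4.33% of genes. DESeq2 called 3 of 10 higher, against 0.212% of genes called higher. Without 3-month control replicate 2 it was again called in 0 of 10, against 0.174% of genes. This contrast shares 3-month control with the others.

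The other crystallins and crystallin-named genes were 13, of which 10 could be tested, and 0 passed in the 5 contrasts. Their median log2 fold change was 0.066 at 12 months and -0.10 at 3 months for KO over control. With 3-month control replicate 2 left out, Crygb was lower in KO at 3 months, with levels of 0, 0.0686 and 0 CPM in KO and 1.29 and 0.937 CPM in control replicates 1 and 3 (adjusted p = 0.011, edgeR). In that fit Crygb, Crygc and Crygd were lower at 12 months in control, and Crygd also in KO. Crygb had 28 counts or more in each 3-month control library and 0 to 2 in the libraries of the other groups. Crygb, Crygc and Crygd passed the count filter only through 3-month control. Against that group only a lower level could be called, so these calls are a description. Crygd was at 0 CPM in all 12-month libraries, against 0.371, 0.137 and 0.135 CPM in 3-month KO. Of 8 other small heat shock genes, relatives of the alpha crystallins, 7 were tested and 0 passed. Hspb6 passed in the fit that left out 3-month control replicate 2 and was higher at 12 months. In the libraries of that fit it was at 115 to 148 CPM at 12 months and 97.0 to 107 CPM at 3 months over both genotypes. In the library left out Hspb6 was at 115 CPM, inside the 12-month range. Its log2 fold changes in that fit were 0.35 ± 0.09 (SE) in control and 0.32 ± 0.08 (SE) in KO (adjusted p = 0.034 and 0.020, edgeR).

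Of 14 heat shock response and chaperone genes 1 passed, and the median log2 fold change of the list at 3 months was -0.045. Hsf1, the main heat shock transcription factor, was at 62.3 to 67.2 CPM in 3-month KO and 82.4 to 92.5 CPM in 3-month control, a log2 fold change of -0.42 ± 0.08 (SE) with adjusted p = 0.019 (edgeR). Without control replicates 2 and 3 the log2 fold change was -0.35 ± 0.10 (SE) with adjusted p = 0.67. Of 10 transcription factors of lens and crystallin genes 7 were tested, and between KO and control 0 passed at 12 months and 0 at 3 months, with a median log2 fold change of 0.012 at 12 months and -0.057 at 3 months. Pax6, a regulator of both lens and retina, did not pass and ranged from 355 to 388 CPM over the 12 libraries.

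Of the 11 lens fibre genes 6 were tested and Lgsn, which encodes the lens protein lengsin, passed. At 3 months 0.158% of all genes were called lower in KO. Lgsn had 27, 98 and 15 counts in 3-month control and at most 8 in any other library. It passed the count filter only through that group, so only a lower level in KO could be called. It was at 0.0675 to 0.171 CPM in 3-month KO and 0.502 to 3.28 CPM in 3-month control, a log2 fold change of -3.61 ± 0.68 (SE) with adjusted p = 0.022 (edgeR). With 3-month control replicate 2 left out it was -2.47 ± 0.67 (SE) with adjusted p = 0.27. Mip, the water channel of fibre membranes, passed without 3-month control replicate 2, at 0.439 to 0.778 CPM in 3-month KO and 1.53 and 5.62 CPM in 3-month control (log2 fold change -2.57 ± 0.51 (SE), adjusted p = 0.045, edgeR). All 10 skeletal muscle genes were lower in 3-month KO than in 3-month control, and 9 of 10 passed with control replicate 2 left out. Some of them, such as Tnni2, Myh1 and Myh2, passed the count filter only through 3-month control, which fixed their direction. Unlike the crystallins, the muscle gene Tnnc2 was alike in the 3 control libraries, at 0.169 to 0.583 CPM in 3-month KO and 12.8, 14.4 and 11.5 CPM in 3-month control. Cornea markers did not move as 1 list, since Aldh3a1 was at 27.3 CPM in 3-month control replicate 2 and at most 1.20 CPM elsewhere, while the corneal keratin Krt12 was at 1.37 CPM there and 1.26 to 2.51 CPM elsewhere.

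The nearest genes on the chromosome were compared in 3-month control replicate 2 and the other 11 libraries. U2af1, the nearest lower neighbour of Cryaa, had 1534 counts there and 1216 to 1465 counts elsewhere. Grk3, the lower neighbour of Crybb2, had 1214 counts there and 1225 to 1472 counts elsewhere. Hspb2, a small heat shock gene inside the span of Cryab, had 128 counts there and 9 to 36 elsewhere, and 2310030G06Rik, which overlaps the start of Cryab, had 66 counts there and 12 to 34 elsewhere.

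The genes whose log2 CPM followed the mean of the crystallins most closely over 12 libraries, among 14350 genes ranked, were Nnat (r = 0.97), Mip (r = 0.96), Pus1 (r = 0.96), Foxe3 (r = 0.96) and Gja3 (r = 0.94). These values rest on 3-month control replicate 2. Mip there had a log2 CPM of 6.76 against -1.72 to 2.51 elsewhere. Over the 11 libraries without it the closest were Rnf121 (r = 0.89), Nop56 (r = 0.89), Acvrl1 (r = 0.88), Fjx1 (r = 0.87) and Cars2 (r = 0.87), and Mip and Foxe3 were no longer among the first 5. For Cryab alone the closest over 12 libraries were Igfbp7 (r = 0.98), Hspg2 (r = 0.97), Tprgl (r = 0.97), Col6a3 (r = 0.96) and Tinagl1 (r = 0.96). These values, too, rest largely on 3-month control replicate 2. Over the 10 libraries without replicates 2 and 3, r was 0.24, -0.16, 0.67, 0.28 and -0.35 in that order. Over 11 libraries the closest to Cryab were Foxe3 (r = 0.93), Xpa (r = 0.87), Mip (r = 0.87), Dgat1 (r = 0.87) and Pdcd5-ps (r = 0.86). Genes were ranked if their mean over all 12 libraries was at least 1 CPM. Foxe3 reached that only through 3-month control replicate 2, at 50.2 CPM. Among the 11 it had 56 counts in 3-month control replicate 3 and 0 to 2 elsewhere. Its r therefore rests largely on that library and on values at the floor. The points share libraries and depth, and the values are a description.

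In the authors' deposited table for 12 months all 10 crystallins are listed and none is below an adjusted p of 0.05. The smallest adjusted p in the authors' deposited table is that of Cryba1, with a log2 fold change of -0.15, p = 0.032 and adjusted p = 0.54. Cryab has a log2 fold change of 0.10 and an adjusted p of 0.85 in the authors' deposited table, whose column names and direction are not given in the file. The fold changes are smaller in size than those computed from the counts. The authors' values were taken to be shrunken and those from the counts were not, so the sizes are unlike measures.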

How the data were processed

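Poly(A) RNA of 12 retinal libraries was sequenced, per the labels' protocols. Per the submitters' processing notes, HISAT2 2.1.0, featureCounts 1.6.4 and DESeq2 1.22.1 were used with GRCm38. The files the authors deposited hold whole-number counts by Entrez ID, 1 file a library. The authors also deposited a 12-month table without a header, whose columns were read from their values as mean normalized signal, log2 fold change, standard error, Wald score (both of unit score), p-value and its adjusted form. It was used as the authors' values only.

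Gene IDs were named from RefSeq, and 25275 of 27179 matched. Counts were fitted with edgeR 4.0.16 (R 4.3.3, limma 3.58.1), using filterByExpr, TMM scaling and robust glmQLFit with glmQLFTest, with 1 coefficient per group over all 12 libraries. Of the genes, 16475 were tested, among them all 10 crystallins, with Benjamini-Hochberg adjustment over all of them. The model was tested on simulated data. Standard errors are the log2 fold change divided by the square root of F. CPM are TMM-scaled, and correlations used log2 CPM with a prior count of 2. CPM per kilobase uses the union of GENCODE exons. Intervals and floors cover counting error only, and a count of 0 was taken to allow 3 counts.

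All 10 crystallins were named. From other lists the passing genes were named, at most 4 a list. The crystallins and the lists were chosen with earlier results of these data known. Krt12, Aldh3a1, Tnnc2, Pax6, Mip and the gamma crystallins were singled out after their values were seen. The alternatives were other scaling factors, limma-voom with quality weights, DESeq2 1.42.0, other filters and thresholds, halved counts, only the groups compared, a replicate block and each library left out. Leaving out 3-month control replicates 2 and 3 together, and Cryaa as lens index, were chosen after seeing the data.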

Additional observations from a re-analysis of the deposited data

How the results depend on the processing

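The number of crystallins called was 0 in the 12-month comparison, the KO age comparison and the difference of KO effects in each alternative run, except that DESeq2 called 3 in the difference. With DESeq2 8 were called at 3 months, among 63 of all genes, and 10 in the control age comparison, among 571. Leaving out each library gave 0 to 2 called at 3 months and 0 to 2 in the control age comparison. The 2 came from leaving out 3-month control replicate 2. Without 3-month control replicate 1, Crygn was the 1 called in the control age comparison (log2 fold change -4.84, adjusted p = 0.028). Without replicates 2 and 3 together 1 was called at 3 months. The number of crystallins above the lens expectation in all 11 libraries was 1 with the fibre genes, 0 with the gamma crystallins and 5 with Cryaa as index, a count that the ratios to Cryaa fix.

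Signs of log2 fold changes that turned were few. At 12 months Crygs turned to 0.33 with limma-voom, and with each library left out it ran from -0.98 to 0.071 and Crybb1 from -0.35 to 0.23. Without 3-month control replicates 2 and 3, Crygn turned to 0.63 at 3 months and Cryab to 0.0037 in the control age comparison. In the KO age comparison, with each library left out, Crygn ran from -0.65 to 0.17, Crybb1 from -0.041 to 0.53, Cryba4 from -0.92 to 1.02 and Crygs from -0.0088 to 0.69. None of these passed the test and the cause was not tested.

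Same-numbered libraries of 2 groups correlated between -0.082 and 0.044. The labels do not say what the numbers mean, and these values cannot exclude a shared litter or day. With the replicate number as a block 0 crystallins were called in each of the 5 comparisons, and Cryba4 turned to -0.032 in the KO age comparison. Over all genes, alternatives that kept all libraries or left out more than 1 called 31 to 163 at 12 months, against 35, 22 to 76 at 3 months, against 37, 147 to 760 in the control age comparison, against 347, 368 to 1268 in the KO age comparison, against 390, and 14 to 56 in the difference, against 21. Leaving out 1 library gave 13 to 166, 21 to 41, 201 to 479, 187 to 717 and 14 to 29 in that order. The restriction to the groups compared gives no value for the difference of KO effects. Low counts limit Crygn, Cryba2 and Cryba4.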
